A study of Homo sapiens with 8 samples.

Results

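Of the 18714 m6A sites listed in human osteosarcoma cells with and without METTL14 knockdown, 752 had no peak in U2OS knockdown cells but one in U2OS control, 143B knockdown and 143B control cells. These 752 sites, on 705 genes, are described here. The 4 deposited peak lists were pooled, and peaks were joined into a site where their spliced blocks shared 1 bp or more on 1 strand. The sites were chosen by the presence and absence of peaks in the lists, so their absence from the U2OS knockdown list is no finding.

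MeRIP-seq pulls down RNA fragments carrying N6-methyladenosine (m6A) with an antibody and sequences them beside RNA that was not enriched (input). U2OS and 143B are established osteosarcoma lines. Every culture carried a lentiviral short hairpin RNA, either against METTL14 (shMETTL14) or a control (NC, labelled shNC), and each of the 4 combinations has 1 immunoprecipitated library with 1 peak list: U2OS shMETTL14, U2OS NC, 143B shMETTL14 and 143B NC. Differences between lists therefore have no replicate behind them, and conditions were compared without a test. How many hairpins or clones were used is not given in the sources used here, and the peaks do not measure METTL14 RNA, so the knockdown was not checked.

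METTL14 binds RNA and holds the catalytic subunit METTL3 in the complex that methylates adenosines of messenger RNA. The mark lies mostly in long exons, around stop codons and in 3' UTRs. Proteins of the YTH family bind it and promote, among other effects, decay of the RNA.

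The lists held 29992 peaks in U2OS shMETTL14, 32353 in U2OS NC, 35195 in 143B shMETTL14 and 33082 in 143B NC. Read counts are not part of the lists, which leaves the depth of each peak unknown, and RNA levels were not analysed here. The fold enrichment and the p-value of a peak are the authors' own and are used to describe peaks within their list. What the fold enrichment is relative to is not given in the sources used here; its values, 1.08 to 172 over the 4 lists, were read as a linear ratio, which is an assumption. Coordinates are on hg19. Of the osteoblast markers, RUNX2 and SPARC were listed in all 4 lists and COL1A1 in every list but 143B NC, and SP7, COL1A2, ALPL, SPP1, BGLAP and IBSP were in none. Of 12 markers of blood, epithelium, endothelium and muscle, KRT8 was listed in all 4 lists and KRT18 in both 143B lists, and the others in none.

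Sites with peaks in U2OS NC, 143B NC and 143B shMETTL14, called 3-list sites below, numbered 6388. The 752 without a U2OS shMETTL14 peak were 11.8% of them (exact Clopper-Pearson 95% interval 11 to 12.6), and the other 5636 were in all 4 lists. All intervals given for shares are of this kind and cover counting error only. In the opposite case, 340 of 5976 sites with peaks in 143B NC and both U2OS lists had none in 143B shMETTL14 (5.69%, interval 5.12 to 6.31). A further 359 sites were in both NC lists and in neither shMETTL14 list. The 752 were thus 10.6% of the 7087 sites present in both controls. The U2OS shMETTL14 list was also the shortest, and with every list cut to its 29992 peaks of lowest p-value the counts were 554 sites missing only in U2OS shMETTL14 and 439 missing only in 143B shMETTL14.

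The 752 sites drew on 1932 peaks of U2OS NC, 2093 of 143B shMETTL14 and 2098 of 143B NC, since isoforms of a gene are listed as separate peaks. At 698 of them (92.8%) at least 1 base was listed in all 3 lists, with a median of 91 shared bases. At the other sites the lists are linked only through neighbouring peaks. The values given for a site in a list are those of its lowest-p peak there, and these peaks need not overlap between lists. Sites just inside the rule include MUM1L1, with a U2OS shMETTL14 peak 8 bases away, ZNF696 (20 bases), SFR1 (21) and HOXC4 (28). Just outside it, ETV3, ERCC6, ZFP90, LRRC45 and SNPH each had a site in all 4 lists whose U2OS shMETTL14 peak shared 1 base with a peak of another list. Such edges were few: 1 site had a peak of its gene within 10 bases in the U2OS shMETTL14 list, and 7 of the 5636 sites in all 4 lists were held by at most 10 bases, against a median overlap of 299 bases. These counts leave out the linking of peaks through neighbours. With direct overlap of a U2OS NC peak asked for instead, the number of sites was 978 and not 752.

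The strength of the sites follows from how they were chosen and is given as a description. Ranked by p-value within the list that holds them, where 0% is the lowest p-value, the sites had a median rank of 71.0% in U2OS NC, 55.4% in 143B shMETTL14 and 54.9% in 143B NC. For the sites in all 4 lists these medians were 30.0%, 26.5% and 30.0% in the same lists. None of the 752 reached the strongest 10% of U2OS NC and 4 reached the strongest 25%. In contrast, 25 were within the strongest 25% of both 143B lists.

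**Figure D1:**
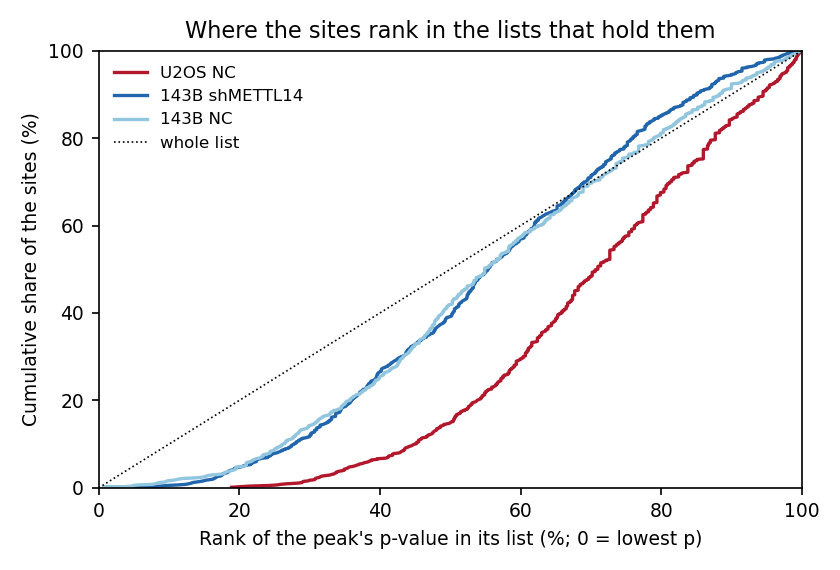
Rank of each of the 752 sites by the authors' p-value within the list that holds it (x axis, 0% is the lowest p-value of the list) against the cumulative share of sites (y axis, %). A dotted line stands for all peaks of a list, isoforms included. Sites enter by their lowest-p peak, so this line does not show where sites in general rank. The sites in all 4 lists had medians of 26.5% to 30.0% in the same lists. The U2OS NC line lies to the right, with a median of 71.0%, and the 143B shMETTL14 and 143B NC lines run together, with medians of 55.4% and 54.9%.

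Along the deciles of the U2OS NC p-value, none of the 639 3-list sites in the first decile and none of the 639 in the second was missing in U2OS shMETTL14, which allows a share of up to 0.576% by the upper limit of the interval. The share was 3.92% in the fifth decile, 20.7% in the eighth and 43.7% in the tenth (interval 39.8 to 47.7), where p-values ran from 0.000302 to 0.00490. For sites missing only in 143B shMETTL14, along deciles of the 143B NC p-value, the share was 0% in the first decile, 1.68% in the fifth and 22.3% in the tenth (interval 19.0 to 25.8). In both lines the missing sites were thus mostly those with the weakest NC peaks, and in the tenth decile the U2OS intervals lay above those of 143B.

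**Figure D2:**
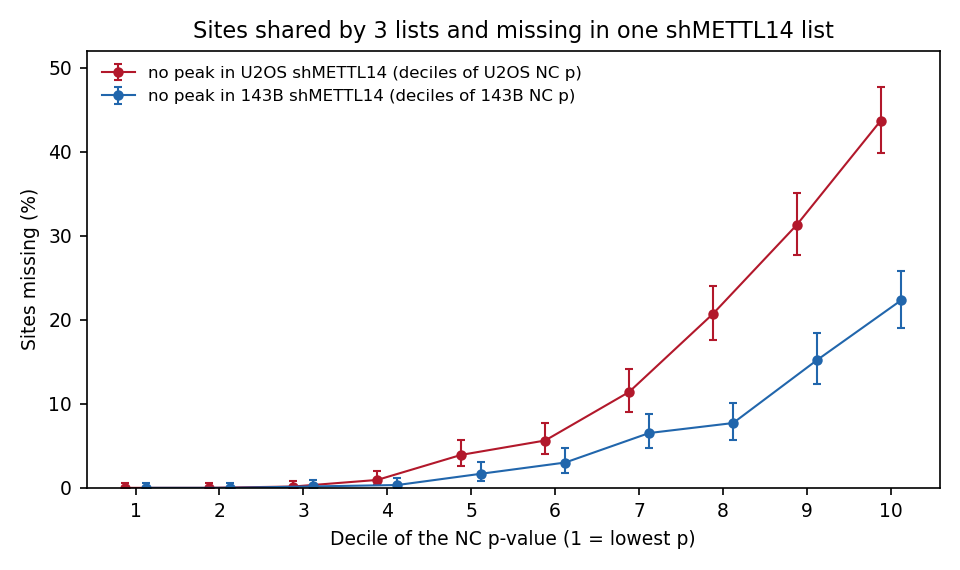
Share of sites shared by 3 lists that had no peak in the remaining shMETTL14 list (y axis, %), by decile of the NC p-value of the same line (x axis, 1 is the lowest p-value). Points are shares and bars exact 95% intervals; the U2OS line goes from 0% to 43.7% and the 143B line from 0% to 22.3%.

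The U2OS NC peaks of the 752 sites were narrow, with a median width of 150 nt (quartiles 91 and 207), against 301 nt (quartiles 210 and 451) for the sites in all 4 lists. An exon junction was covered at 14.8% of the 752 sites and at 37.2% of the sites in all 4 lists. Other missing sites were alike. The 143B NC peaks of sites missing only in 143B shMETTL14 had a median width of 150 nt, with 17.1% over a junction. The U2OS NC peaks of sites missing in both shMETTL14 lists had 121 nt and 14.5%. Narrower peaks can cover fewer junctions, and the part of width in these shares was not tested. Fold enrichment differed less: the median was 3.67 in U2OS NC, 3.69 in 143B shMETTL14 and 4.03 in 143B NC for the 752, against 4.14, 4.35 and 4.40 in the same lists for the sites in all 4. In U2OS NC, 74 of the 752 had a fold enrichment of 10 or more, with 19 distinct values among them, and 39 had one under 2. Equal high values recur, as at GATA4 and TCTN1, and the read counts behind them are unknown.

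By the part of the transcript that the U2OS NC peak covered, 287 of the 752 sites lay in the 3' UTR only (38.2%, interval 34.7 to 41.7), 339 in coding sequence only (45.1%) and 64 in both, which spans the stop codon (8.51%, interval 6.62 to 10.7). A further 35 lay in the 5' UTR only (4.65%) and 27 in the 5' UTR and coding sequence (3.59%). Of the sites in all 4 lists, 24.5% lay in the 3' UTR only, 44.5% in coding sequence only and 23% across the stop codon. The 340 sites missing only in 143B shMETTL14 had shares of 34.7%, 42.4% and 10.9% in the same parts. By their U2OS NC peaks, the missing sites of either line thus lay less often across the stop codon and more often in the 3' UTR only than the sites in all 4 lists. Their intervals overlapped each other in every part. Narrower peaks can cover fewer stop codons, and these peaks had a median width of 150 nt at the 752 sites, against 301 nt at the sites in all 4 lists. The part of width in these shares was not tested. At 644 of the 752 the U2OS NC and 143B NC peaks covered the same part.

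**Figure D3:**
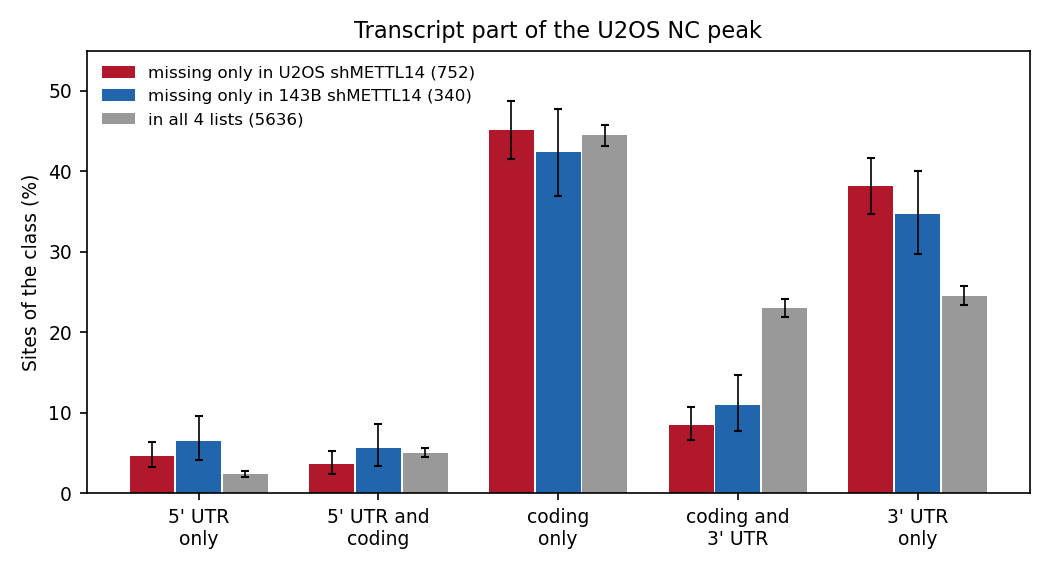
Share of sites by the part of the transcript covered by the U2OS NC peak (y axis, %), for the 752 sites missing only in U2OS shMETTL14, the 340 missing only in 143B shMETTL14 and the 5636 in all 4 lists. Bars carry exact 95% intervals; the 752 have 8.51% across the stop codon and 38.2% in the 3' UTR only, against 23% and 24.5% of the sites in all 4 lists.

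The p-value of the peak moved with the part of the transcript. Among the 3194 3-list sites with the higher U2OS NC p-values, 56 of 379 sites across the stop codon were missing (14.8%, interval 11.4 to 18.8), against 279 of 1088 in the 3' UTR only (25.6%, interval 23.1 to 28.3), 327 of 1512 in coding sequence only (21.6%) and 33 of 111 in the 5' UTR only (29.7%). Among the 3194 with the lower p-values, 32 were missing in all (1.00%), and the shares were 0.815% across the stop codon, 1.37% in the 3' UTR only and 0.899% in coding sequence only. The stop codon share was lower among the sites with the higher p-values too, with an interval below that of the 3' UTR. The p-value still varied within that group: from its first to its last decile the missing share rose from 5.63% to 43.7%. Whether the transcript part counts apart from the p-value and the width of the peak was not tested.

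Across chromosomes the share of 3-list sites missing in U2OS shMETTL14 ran from 4.95% on X (5 of 101) to 18.2% on 21 (12 of 66), and 0 of 11 sites on the mitochondrial chromosome were missing. Chromosome 14 had 45 of 268 (16.8%, interval 12.5 to 21.8), above the 11.8% of all sites. The interval of X, 1.63 to 11.2, lay below 11.8%, and those of all chromosomes besides 14 and X included it. A 95% interval was read for every chromosome, without allowance for their number. Among so many intervals a few can miss 11.8% by counting error alone. The intervals of 14 and X therefore do not show that these chromosomes differ from the rest, and no test across chromosomes was made.

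On many of the genes another peak was listed; peaks were matched by gene name, not by transcript. At 415 of the 752 sites (55.2%, interval 51.6 to 58.8) the gene had another peak in U2OS shMETTL14, and at 312 (41.5%) it also had a site in all 4 lists. For 413 sites this other peak lay on the same chromosome and strand, at a median distance of 1759 genome bases, introns included; at 30 sites (3.99%) it was within 100 bp and at 133 (17.7%) within 500 bp. Sites missing only in 143B shMETTL14 were alike. At 205 of 340 (60.3%, interval 54.9 to 65.5) the gene had another 143B shMETTL14 peak, within 100 bp at 12 (3.53%) and within 500 bp at 57 (16.8%). The remaining 337 of the 752 sites lay on 320 genes with no U2OS shMETTL14 peak at all, and 261 of these genes had a single site in U2OS NC.

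A few genes carried several of the sites: 39 genes had 2 and 4 had 3. IL4R, the alpha chain of the interleukin 4 receptor, had no peak in U2OS shMETTL14, against 11 peaks in U2OS NC, and 12 in 143B shMETTL14, against 14 in 143B NC. These formed the same 3 sites in the 3 lists that hold them. The first lay in coding sequence (chromosome 16, 27373789 to 27374242), with a fold enrichment of 4.37 in U2OS NC, 5.75 in 143B shMETTL14 and 5.65 in 143B NC. The second followed in coding sequence (27374716 to 27375104; 10.3, 3.25 and 3.70 in the same lists). The third began 94 bases further on, in the 3' UTR (27375199 to 27376069; 5.99, 4.67 and 4.04). At the first and second sites the lowest-p peaks of U2OS NC and 143B NC did not overlap. The U2OS NC p-values of the 3 sites were 0.00129, 8.91e-05 and 0.000537, so all 3 were weak by that measure. The first site had a p-value of 3.16e-18 in 143B shMETTL14.

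ZNF184, a C2H2 zinc finger protein, showed the same layout on chromosome 6, with 0 peaks in U2OS shMETTL14, 6 in U2OS NC, 6 in 143B shMETTL14 and 6 in 143B NC. Its 3 sites lay at 27419017 to 27419495 (coding sequence and 3' UTR), 27419744 to 27420191 and 27420698 to 27420907 (coding sequence). Their fold enrichment was 4.92, 4.33 and 4.49 in U2OS NC, 5.91, 4.43 and 5.54 in 143B shMETTL14, and 15.7, 5.22 and 6.52 in 143B NC. IL4R and ZNF184 were the genes with 3 sites of which no site remained in U2OS shMETTL14. Of the genes of the 752 sites, 399 had 2 or more sites in U2OS NC, and 59 of these had no site in U2OS shMETTL14. At 11 of the 59, IL4R and ZNF184 included, every U2OS NC site was among the 752. The others, with 2 each, were DMXL2, EVL, FBXL18, FUT8, NOB1, SENP3, TCTN1, ZNF101 and ZNF142, and all were listed after their values were seen.

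BRD3 and MAML2 also had 3 of the sites but kept other peaks. BRD3, a bromodomain protein that binds acetylated histones, had 1 site in U2OS shMETTL14 and 6 in U2OS NC, and 6 in 143B shMETTL14 and 4 in 143B NC. Its 3 missing sites lay on chromosome 9, in the 3' UTR (136898088 to 136898297), over the stop codon (136898626 to 136898776) and in coding sequence (136913450 to 136915707). They had a fold enrichment of 2.82, 2.65 and 2.50 in U2OS NC, and the nearest U2OS shMETTL14 peak was 6443 bases away. MAML2, a coactivator of Notch receptors, had 3 sites in U2OS shMETTL14 and 6 in U2OS NC. A U2OS shMETTL14 peak lay 59 bases from each of its sites in the 5' UTR (chromosome 11, 96075055 to 96075205) and in coding sequence (95826680 to 96074815, joined over an intron), and 209 bases from the third.

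MAST2, PAK2, FOXK1 and AHNAK were among the genes with 2 sites. The sites of MAST2, a microtubule-associated kinase, lay side by side in coding sequence (chromosome 1, 46500362 to 46500631 and 46500633 to 46501021) with 1 base between them. Their fold enrichment was 2.80 and 2.76 in U2OS NC, 3.05 and 3.32 in 143B shMETTL14, and 2.45 and 2.61 in 143B NC, and MAST2 had no U2OS shMETTL14 peak. AHNAK, a giant scaffold protein, was listed densely, with 13 sites in U2OS shMETTL14 and 15 in U2OS NC, and its missing sites lay 179 and 148 bases from a U2OS shMETTL14 peak. FOXK1, a forkhead transcription factor, had 7 sites in U2OS shMETTL14 and 8 in U2OS NC, and its 3' UTR site at 4809575 to 4809995 on chromosome 7 had a fold enrichment of 15.4 in U2OS NC, 3.06 in 143B shMETTL14 and 9.78 in 143B NC. PAK2, a p21-activated kinase, had 1 site in U2OS shMETTL14 and 3 in U2OS NC.

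The 10 sites with the lowest U2OS NC p-value were on COL6A3, SLC39A9, TRPS1, RAB30, RLF, C14orf93, NPLOC4, MAML1, IMP4 and IRF2BPL. The first was in coding sequence of COL6A3, a chain of collagen VI (chromosome 2, 238249252 to 238249672). It had a fold enrichment of 3.85 and a p-value of 7.94e-15 in U2OS NC, 4.23 and 1.58e-16 in 143B shMETTL14, and 4.69 and 3.98e-18 in 143B NC. COL6A3 kept 6 peaks in U2OS shMETTL14, against 12 in U2OS NC, the nearest of them 5502 bases away. This was also the site with the best mean rank over the 3 lists.

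SLC39A9, a zinc transporter, had its only site in the 5' UTR (chromosome 14, 69865646 to 69866037), with a fold enrichment of 4.49 in U2OS NC, 2.99 in 143B shMETTL14 and 4.82 in 143B NC, and no U2OS shMETTL14 peak anywhere. TRPS1, a repressor with a role in skeletal development, had a coding site (chromosome 8, 116430587 to 116599763, joined over introns) with a fold enrichment of 5.38, 7.48 and 14.3 in the same lists, and 2 other sites in U2OS shMETTL14. RAB30, a small GTPase of the Golgi, had 1 site across the stop codon (chromosome 11, 82692963 to 82693443), with a p-value of 3.98e-12 in U2OS NC but 0.000240 in 143B shMETTL14 and 0.00275 in 143B NC. By rank, the RAB30 site stood at 78.4% of the 143B shMETTL14 list and 97.9% of the 143B NC list, far below its place in U2OS NC. IMP4, a component of ribosomal RNA processing, had a 3' UTR site (chromosome 2, 131104047 to 131104197) with a fold enrichment of 4.09 in U2OS NC, 2.91 in 143B shMETTL14 and 2.83 in 143B NC. RLF, NPLOC4, MAML1 and IRF2BPL kept 1 to 3 U2OS shMETTL14 peaks, at distances of 208 to 4168 bases from the site, and C14orf93 kept none.

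**Figure D4:**
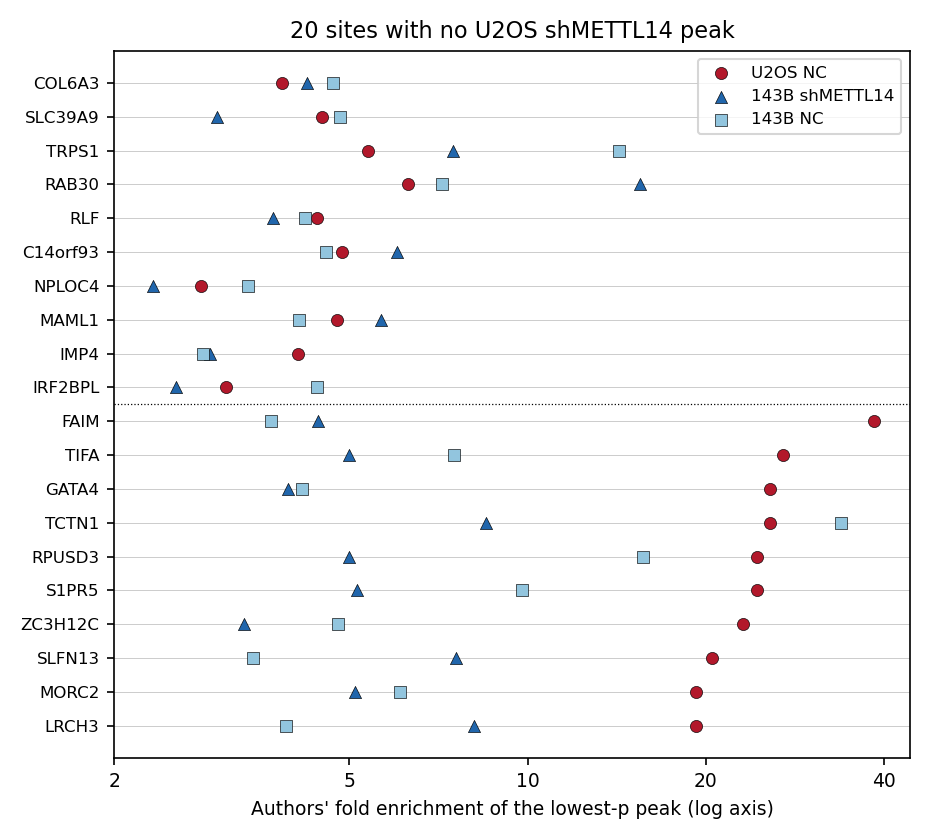
The authors' fold enrichment of the lowest-p peak (x axis, log scale) at 20 of the 752 sites, in U2OS NC, 143B shMETTL14 and 143B NC. Above the dotted line are the 10 sites with the lowest U2OS NC p-value, where the 3 lists lie close together for most, and below it the 10 with the highest U2OS NC fold enrichment, from 19.3 to 38.5, where all but TCTN1 are lower in both 143B lists; LRCH3 is 1 of several sites tied at 19.3.

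The 10 sites with the highest U2OS NC fold enrichment were on FAIM, TIFA, GATA4, TCTN1, RPUSD3, S1PR5, ZC3H12C, SLFN13, MORC2 and LRCH3, at 19.3 to 38.5. The last place was a tie: LRCH3, SLC35E1, ZNF367, ZNF37A and the second TCTN1 site had the same fold enrichment of 19.3 and the same p-value of 3.63e-05 in U2OS NC, and LRCH3 stands for them only by its place in the table. Picking the highest values of 1 list favours sites that are lower in the others, and at 9 of the 10 both 143B values were lower. Of the tied sites, SLC35E1 was higher in 143B shMETTL14, at 23.3. FAIM, an inhibitor of Fas-induced apoptosis, had a coding site over several exons (chromosome 3, 138340365 to 138351923) with a fold enrichment of 38.5 in U2OS NC, 4.43 in 143B shMETTL14 and 3.68 in 143B NC. TCTN1, a protein of the ciliary transition zone, had both its sites in the 3' UTR (chromosome 12). The site at 111067645 to 111067883 had a fold enrichment of 25.7 in U2OS NC, 8.50 in 143B shMETTL14 and 33.9 in 143B NC, and the site at 111066899 to 111067287 had 19.3, 14.4 and 7.39. GATA4, a transcription factor of heart and endoderm, had a 3' UTR site (chromosome 8, 11616373 to 11616737) at 25.7, 3.93 and 4.15 in the same lists. S1PR5, a sphingosine 1-phosphate receptor, stood at 24.4, 5.14 and 9.78, and RPUSD3, a mitochondrial pseudouridine synthase, at 24.4, 4.99 and 15.7, both in the 3' UTR. FAIM, TCTN1, GATA4, S1PR5, RPUSD3, SLFN13 and LRCH3 had no U2OS shMETTL14 peak, and TIFA, ZC3H12C and MORC2 had 2 to 4.

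Some sites were strong in 143B and weak in U2OS NC. BASP1, a membrane-bound protein of growing neurites, had a peak of 985 nt in 143B shMETTL14 (fold enrichment 10.7, p-value 1e-190) and of 1014 nt in 143B NC (9.51, 1e-154), against 179 nt in U2OS NC (8.99, 0.000170). BASP1 thus had no peak in U2OS shMETTL14 and 1 in U2OS NC, beside 3 in each 143B list. TBC1D8, named for this reason after its values were seen, had a site across the stop codon (chromosome 2, 101624079 to 101624529) with a fold enrichment of 3.15 in U2OS NC, 19.9 in 143B shMETTL14 and 7.25 in 143B NC. These and a site of RPL10 were the 3 within the strongest 10% of both 143B lists. IKBIP had a coding site with p-values of 3.16e-20 in 143B shMETTL14 and 3.98e-43 in 143B NC, against 7.24e-07 in U2OS NC. WARS2, the mitochondrial tryptophanyl-tRNA synthetase, had a stop codon site with 5.01e-24 and 1.26e-53, against 2.95e-05 in U2OS NC. MYO10, OTUB2, ASB13, FUT8 and TAOK3 completed, with COL6A3 and IMP4, the 10 sites of best mean rank.

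Among the genes with no U2OS shMETTL14 peak, the lowest U2OS NC p-values beside those already given were on CUL5, ASB13, GTF3C2, UCP2 and NHP2. CUL5, the scaffold of a ubiquitin ligase, had 1 stop codon site (chromosome 11, 107974939 to 107975178) with a fold enrichment of 4.30 in U2OS NC, 2.53 in 143B shMETTL14 and 3.15 in 143B NC. ASB13, a substrate adaptor of such ligases, had a 3' UTR site (chromosome 10, 5682060 to 5682480) at 7.70, 8.66 and 4.49. UCP2, a mitochondrial carrier, had a 3' UTR site at 2.44, 3.98 and 2.53, and NHP2, a core protein of box H/ACA ribonucleoproteins, a coding site at 1.72, 1.33 and 1.34. GTF3C2, a subunit of the RNA polymerase III factor TFIIIC, had a site across the stop codon at 3.25, 3.56 and 2.0.

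The genes were also read against 30 lists of pathways and families, on which 187 of the 752 sites lay. The share of 3-list sites missing in U2OS shMETTL14 is given for the lists described, beside the 11.8% of all genes. For some lists the median rank of the U2OS NC peaks by p-value is added, which was 35.0% for all 3-list sites. No test was made of any list, and lists with fewer than 50 sites have wide intervals.

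Apoptosis and survival genes had the highest share, 6 of 21 sites (28.6%, interval 11.3 to 52.2), at a median rank of 52.6%. Beside FAIM these were BCL2L11, a BH3-only activator of apoptosis, RIPK1, a kinase of death receptor signalling, the inhibitors BIRC2 and BIRC3, and CASP8, the initiator caspase. BCL2L11 had 0 peaks in U2OS shMETTL14 and 5 in each other list, all at 1 site over the start of the coding sequence, with a fold enrichment of 5.78 in U2OS NC, 3.05 in 143B shMETTL14 and 7.83 in 143B NC. BIRC2 had 0 peaks in U2OS shMETTL14 and 9 in U2OS NC, and 13 in each 143B list; its coding site had 3.32, 2.22 and 3.56. RIPK1 kept 2 sites in U2OS shMETTL14, with the nearest peak 343 bases away. CASP8 had 3 peaks in U2OS shMETTL14 and 34 in U2OS NC, and its missing 3' UTR site was weak in U2OS NC (2.57, p-value 0.00115).

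Centrosome and cilium genes had 15 of 74 sites missing (20.3%, interval 11.8 to 31.2) at a median rank of 51.9%. CEP250, which links centrosomes, had 2 of them and kept 4 sites in U2OS shMETTL14, against 5 in U2OS NC. CEP290, a protein of the ciliary transition zone like TCTN1, had 2 and kept 3 sites in U2OS shMETTL14, against 5 in U2OS NC. CEP68 and CNTROB had no U2OS shMETTL14 peak, while CEP350 kept 7, the nearest 288 bases from its site. Notch genes had 6 of 31 (19.4%, interval 7.45 to 37.5) at a median rank of 50%: the coactivators MAML1, MAML2 with 3, and MAML3, and POFUT1, which fucosylates Notch receptors. The coding site of MAML3 had a fold enrichment of 12.8 in U2OS NC, 10.5 in 143B shMETTL14 and 6.2 in 143B NC.

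**Figure D5:**
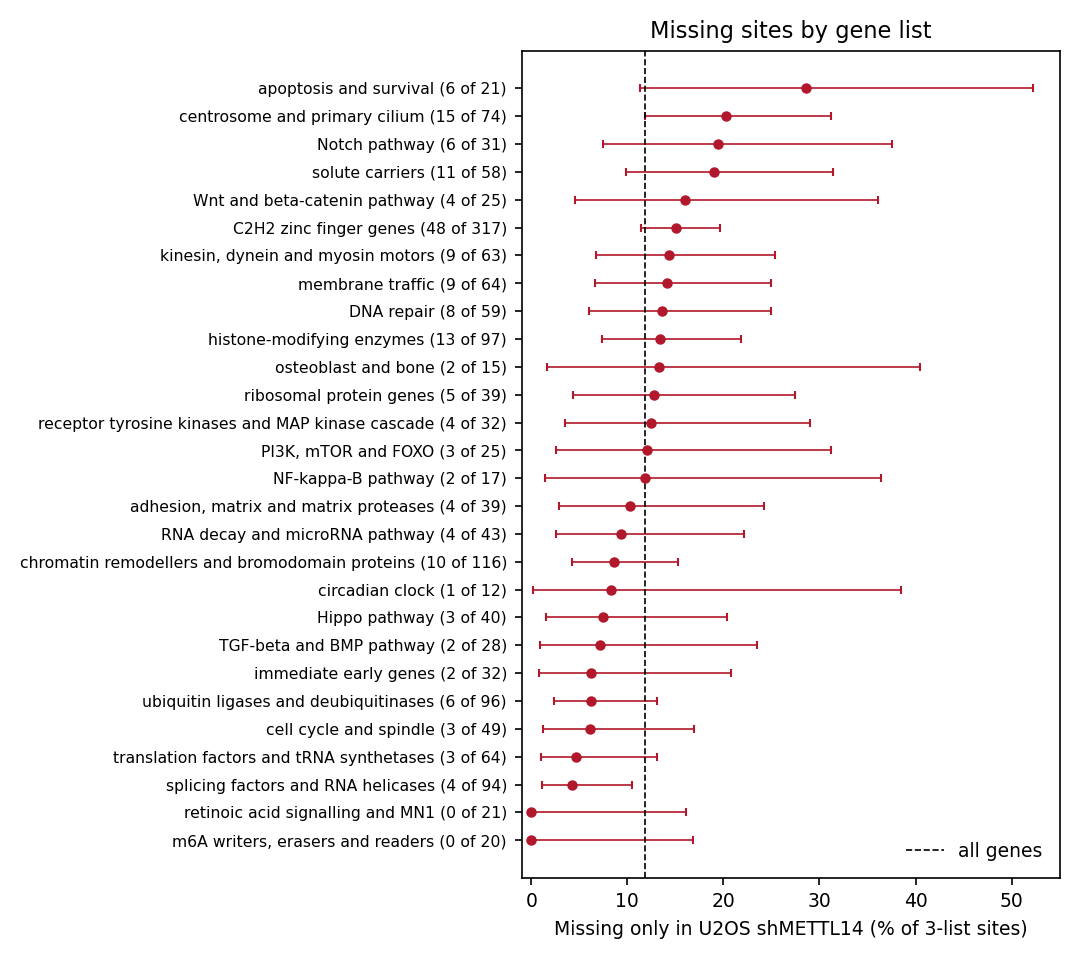
Share of 3-list sites missing only in U2OS shMETTL14 (x axis, %) for the gene lists with 10 or more such sites that the text describes, with exact 95% intervals, and a dashed line at the 11.8% of all genes. Labels give the missing sites of all 3-list sites; apoptosis genes lie highest at 28.6%, and m6A and retinoic acid genes lie at 0%, with most intervals including the dashed line.

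Solute carriers had 11 of 58 sites missing (19.0%, interval 9.87 to 31.4) at a median rank of 46.0%. SLC35E1 had a 3' UTR site with a fold enrichment of 19.3 in U2OS NC, 23.3 in 143B shMETTL14 and 8.48 in 143B NC. SLC31A1, the copper importer, had one at 5.99, 25.5 and 14.3, where the U2OS NC and 143B NC peaks did not overlap. SLC2A1, the glucose transporter GLUT1, had one at 1.79, 1.65 and 1.78. C2H2 zinc finger genes had 48 of 317 (15.1%, interval 11.4 to 19.6) at a median rank of 48.4%, led by ZNF827, ZNF7, ZNF484, ZNF106, ZNF318 and ZFP41, all of which kept 3 or more peaks in U2OS shMETTL14. Members of this family may share reads with their relatives. Motor proteins had 9 of 63 (14.3%), among them MYO10 and MYO1E, and membrane traffic genes 9 of 64 (14.1%), among them STX17, a SNARE of autophagosomes, SEC24A and VPS13D, none of which had a U2OS shMETTL14 peak.

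DNA repair genes had 8 of 59 sites missing (13.6%, interval 6.04 to 25). BARD1, the partner of BRCA1, the damage kinase ATM, PALB2, which joins BRCA1 to BRCA2, and the polymerase POLQ had no U2OS shMETTL14 peak, and BLM and PMS1 did. PALB2 had 2 of the sites. The one of lower p-value lay in coding sequence with a fold enrichment of 10.3 in U2OS NC, 4.63 in 143B shMETTL14 and 5.40 in 143B NC. Its U2OS NC and 143B NC peaks did not overlap and were linked only through the 143B shMETTL14 peak. ATM had a site at 2.57, 3.32 and 10.4, over the stop codon in U2OS NC but in the 3' UTR only in both 143B lists. The U2OS NC and 143B NC peaks behind these ATM values did not overlap. Of histone-modifying enzymes 13 of 97 were missing (13.4%), led by coding sites of the methyltransferase KMT2B (5.62, 2.72 and 8.69), the acetyltransferase KAT6A (3.47, 5.33 and 5.31) and the demethylase KDM6B (3.96, 3.88 and 5.22). Chromatin remodellers and bromodomain proteins had 10 of 116 (8.62%), with CHD8 (5.14, 4.88 and 3.23), BAZ2A and SRCAP beside BRD3, and all of these genes kept U2OS shMETTL14 peaks.

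Signalling lists lay on either side of 11.8%. Wnt genes had 4 of 25 missing (16.0%), with APC and AXIN1 of the destruction complex and the coreceptor LRP5. Receptor tyrosine kinase and MAP kinase genes had 4 of 32 (12.5%), in which the insulin receptor INSR had a stop codon site at a fold enrichment of 18.0 in U2OS NC, 17.7 in 143B shMETTL14 and 13 in 143B NC and no U2OS shMETTL14 peak. PI3K, mTOR and FOXO genes had 3 of 25 (12%), namely MTOR, RPTOR and FOXO3, and NF-kappa-B genes 2 of 17, namely TIFA and TAB1. Hippo genes had 3 of 40 (7.5%), with the 3' UTR site of the scaffold SAV1 at 6.93, 2.52 and 2.85, and TGF-beta and BMP genes 2 of 28 (7.14%), SMAD3 and ACVR1B.

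Bone genes had 2 of 15 missing (13.3%), LRP5 and the homeobox gene MSX1 (6.85, 3.28 and 6.09), and matrix genes 4 of 39 (10.3%): COL6A3, PTK2, AGRN and FBN1. FBN1, which encodes the microfibril protein fibrillin-1, had a stop codon site at 16.0 in U2OS NC, 4.25 in 143B shMETTL14 and 18.3 in 143B NC and no U2OS shMETTL14 peak. Immediate early genes had 2 of 32 (6.25%), JUNB and KLF2, and the coding site of KLF2 stood at 16.7, 23.8 and 12.7. The circadian list had 1 of 12, CLOCK, and the 1 site of a protocadherin gene was not missing.

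None of the 20 3-list sites of m6A writers, erasers and readers was missing, which by the interval allows a share of up to 16.8%, and none of 21 of retinoic acid genes with MN1 (up to 16.1%). Splicing factors and RNA helicases had 4 of 94 missing (4.26%, interval 1.17 to 10.5), namely SRSF10, RBFOX2, U2AF1 and U2AF2, at a median rank of 19.5%. Translation factors and tRNA synthetases had 3 of 64 (4.69%) at 20.3%, cell cycle genes 3 of 49 (6.12%), with CCND1, CDK13 and TPX2, and ubiquitin enzymes 6 of 96 (6.25%, interval 2.33 to 13.1), with the cullins CUL2, CUL3 and CUL5. RNA decay genes had 4 of 43 (9.30%), with the microRNA processing enzyme DICER1, the decapping enzyme DCP2, UPF1 and ZC3HAV1. The median rank moved with the share in several lists but not in all. It was low in the splicing and translation lists. In the apoptosis, centrosome, Notch, solute carrier and C2H2 zinc finger lists, with shares of 15.1% to 28.6%, it was 46.0% to 52.6%, against 35.0% for all 3-list sites. Wnt genes had a median rank of 32.2% at a share of 16.0%. NF-kappa-B genes had a median rank of 54.6% at a share of 11.8%, and matrix genes 18.9% at a share of 10.3%. The part of the NC p-value in these shares was not tested.

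Ribosomal protein genes had 5 of 39 sites missing (12.8%, interval 4.30 to 27.4) although their sites had the lowest median rank of the lists with 10 or more sites, 6.04%. All 5 lay in the 3' UTR by their U2OS NC peak, and all were weak in U2OS NC. RPL37 had 2, at 40825484 to 40826082 and 40829341 to 40829820 on chromosome 5. The first had a fold enrichment of 4.71 and a p-value of 9.55e-05 in U2OS NC, 6.14 and 1.58e-35 in 143B shMETTL14, and 8.15 and 7.94e-16 in 143B NC. RPL27A had 1, and RPS27 had 1 at the edge of the U2OS NC list (1.19, p-value 0.00479). The site of RPL10 lay on the additional sequence JH159150.3, outside the main chromosomes, with p-values of 0.00240 in U2OS NC, 2.00e-33 in 143B shMETTL14 and 1.26e-42 in 143B NC. Ribosomal protein genes have many near-identical copies, so reads may be shared and these sites are uncertain.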

How the data were processed

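Peak lists of 4 immunoprecipitated libraries were used; the 4 input libraries enter only through the authors' values. The submitters' processing notes name hg19 (GRCh37) and the tools HISAT2, Trimmomatic and FastQC 0.11.5; for the peak caller, its threshold and the annotation, nothing is given in the sources used here. Per the file headers, each peak has a deposited p-value and a deposited fold enrichment; its scale and reference are not stated, and it was read as a linear ratio. Peaks were joined to sites by overlap of spliced blocks on 1 strand, and a site takes gene and transcript part from its U2OS NC peak of lowest p-value. Coordinates are printed from 1.

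Members and gene lists were chosen with earlier results of these data known. Named sites are the 10 with the lowest U2OS NC p-value, highest fold enrichment, best mean rank and lowest p-value among genes with no U2OS shMETTL14 peak. Also named are the 8 nearest a U2OS shMETTL14 peak of their gene, 8 genes with most sites, and up to 6 genes per list, of which some are given only as counts. Of the 8 genes with most sites, 4 had 3 sites, and MAST2, PAK2, FOXK1 and AHNAK come from the 39 genes tied at 2. Tools were Python 3.11.15, numpy 2.4.6, pandas 2.3.3, scipy 1.17.1 and matplotlib 3.10.9. The joining code was run on simulated lists made from 11699 U2OS NC sites, and 1195 of 1195 simulated sites were recovered. The simulated peaks were copies of 1 peak per site with a few bases trimmed off the ends, made to overlap. Recovery was therefore built in, and the run checks the code only, not shifted or chained peaks as in the real lists. Peaks of isoforms are not independent. The results of 1 gene list and 1 marker are not reported here.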

Additional observations from a re-analysis of the deposited data

How the results depend on the processing

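The number of sites was 733 to 978 under another overlap, spans, strand or direct overlap, and 751 on chromosomes 1 to 22 and X. It was 337 with the 50% of each list of lower p-value, 495 with the 50% of higher fold enrichment, 554 with equal numbers, 418 counted in genes and 42 with only U2OS shMETTL14 kept whole, a choice added after the data were seen. The missing share of 3-list sites was 15.6% with direct overlap, 10.5% by lower p-value, 16.8% by higher fold, 9.52% with equal numbers, 8.56% in genes and 1.31% with U2OS shMETTL14 whole. The 3' UTR share was 33.6% with direct overlap, 33.2% by lower p-value, 28.3% by higher fold and 28.6% with U2OS shMETTL14 whole. Sites whose gene had another U2OS shMETTL14 peak made up 68.1%, 37.1%, 45.3% and 59.5% under those settings. Sites missing only in 143B shMETTL14 numbered 169 by lower p-value and 174 in genes. The cause was not tested, except that fewer peaks enter the halved lists by construction. No paired analysis was possible because each combination of line and hairpin has 1 immunoprecipitated library with 1 peak list. The results are counts and shares of listed sites, without a test, and shMETTL14 and NC were compared within each line.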
